A study of Mus musculus with 8 samples.

Results

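The ion channel genes are the 59 symbols, of 14033 in the table, that begin with Kcn, Cacn, Scn or Clcn, name a TRPC, TRPM, TRPV or P2X subunit by number, or are Orai1, Orai2, Orai3 or Fam38a, an older symbol of Piezo1. They were chosen by name and not by their values. CacnB2 and Cacnb2 are separate rows for 1 gene, so the 59 members stand for 58 genes. By role, 43 members encode pore-forming channel subunits or the related chloride transporters, 10 encode accessory subunits and 3 encode proteins that bind potassium channels. The last 3 carry a matching name but encode no channel subunit. These are Kcnq1ot1, a long noncoding RNA antisense to a potassium channel gene, Scnm1, a splicing factor, and Trpc4ap, an adaptor protein.

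RNA was sequenced from mouse fetal liver at E14.5, where E marks the embryonic day, from embryos of a Flt3-Cre by mTmG cross. In the mTmG reporter a cell makes Tomato until Cre recombines the locus, after which the cell and its descendants make GFP, so the fractions record Flt3-Cre activity at any earlier time and not present Flt3 expression. Lineage-negative cells with Kit, Sca1 and CD150 on their surface were sorted as GFP+ (4 libraries) or Tomato+ (4 libraries). Both fractions came from this cross, and by the reporter's design the mTmG locus is recombined in the GFP+ cells. Whether the libraries came from separate embryos, litters or sorts is not stated, so the authors' p-values may measure a spread that is partly technical. The table gives the mean normalized count of each fraction and no value per library, so no SD, n-based error or depth per library stands beside the values. A normalized count is a read count divided by a library's size factor, and it is not corrected for gene length. A gene is called here when the authors' adjusted p is under 0.05, and a log2 value above 0 means a higher mean in GFP+. Where a pair of means is given without naming the fractions, the GFP+ mean comes first, and where a gene is said to rise or fall from a value, that value is the Tomato+ mean.

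Ion channels are membrane proteins that let ions pass down their gradients. Potassium channels set the membrane voltage, calcium channels raise calcium in the cytosol, and calcium release from stores opens Orai channels through the sensor proteins Stim1 and Stim2. In blood cells channels are best known for volume control, calcium signalling in lymphocytes and platelets, and the sensing of ATP and stretch.

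Of 59 members, 5 were called, or 8.47%, beside 7.49% of all 14268 rows, a share near the background. The calcium-permeable channel Trpc6, the ATP-gated channel P2rx1 and the potassium channels Kcnj5 and Kcnk5 fell in GFP+, and the potassium channel subunit Kcng1 rose. The 4 lower calls were 6.78% of the members, beside 2.64% of all rows called lower, and the 1 higher call was 1.69%, beside 4.86% called higher. All 5 belong to the 43 of the pore or transporter class, and none of the 10 accessory subunits was called in the authors' DESeq comparison, nor had any of them an unadjusted p under 0.05. An unadjusted p under 0.05 was found for 7 members, 11.9%, beside 16.2% of all rows. The median log2 of the members was -0.13, beside 0.01 for all rows, and 41 members (69.5%) were below 0 beside 48.8% of all rows. Among the 31 members with an overall mean of at least 50, the median was -0.08, beside 0.03 for all such rows. Among the 28 members under 50 it was -0.36, beside -0.17 for all such rows. Low-count rows as a whole thus also had a median below 0. Such rows were more frequent among the members, at 28 of 59 beside 3608 of 14268. The share of members below 0 is therefore not set against rows of matched level.

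**Figure D1:**
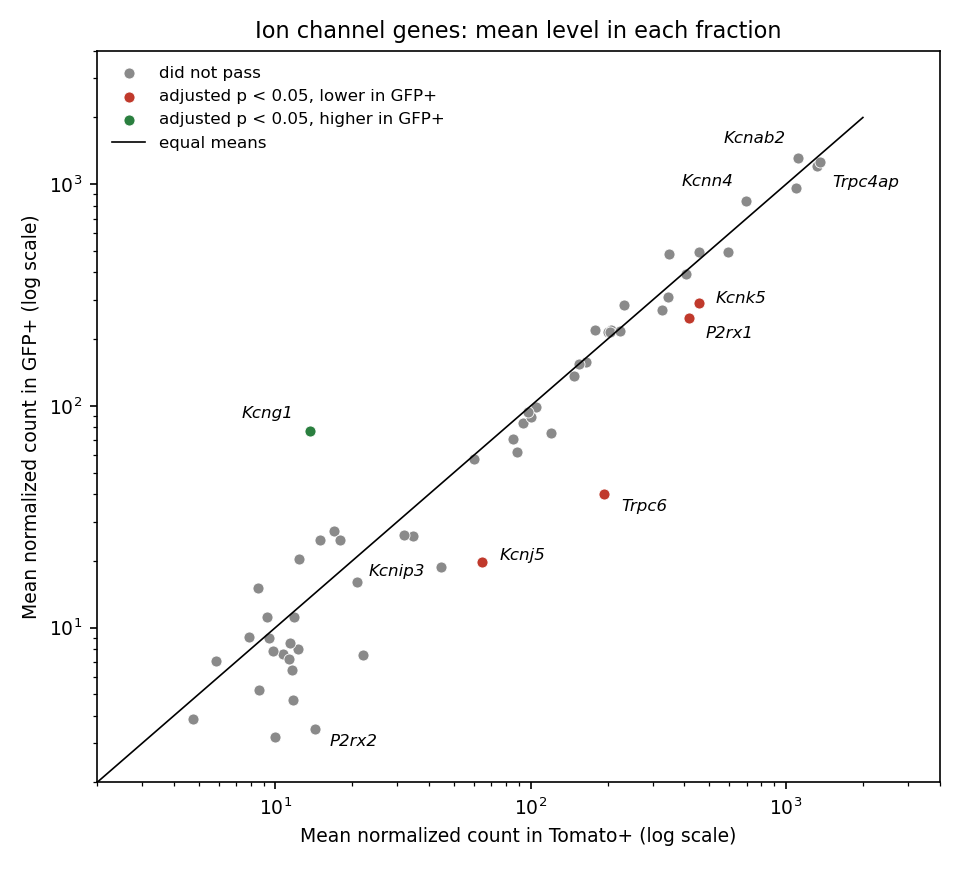
Mean normalized count of each of the 59 members in GFP+ (vertical) against Tomato+ (horizontal), both on log scales, with the line of equal means; no value per library is in the table, so no error bars are drawn. Most members lie along the line, Kcng1 lies above it at 77.4 against 13.7, and Trpc6 lies farthest below it among the called members at 40.0 against 194.

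Trpc6 encodes a channel that opens to diacylglycerol downstream of phospholipase C and lets calcium and sodium in, and it is known from platelets and smooth muscle. Its mean was 40.0 normalized counts in GFP+ and 194 in Tomato+ according to the authors' deposited table. That is 4.84-fold lower in GFP+, with a log2 of -2.27 and adjusted p = 3.96e-11 according to the authors' deposited table. By p-value it stood at place 79 of the 14268 rows. It was also the sole member whose overall mean reached 50 and whose log2 reached 1 in size.

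P2rx1 encodes a channel opened by extracellular ATP and is known as a P2X receptor of platelets. The authors' deposited table gave means of 250 in GFP+ against 418 in Tomato+, 1.67-fold lower in GFP+ (log2 -0.74, adjusted p = 0.000938). Kcnj5 encodes an inward rectifier opened by G proteins, known from the heart and the adrenal gland. It had low means of 19.7 in GFP+ against 64.7 in Tomato+ and was 3.29-fold lower in GFP+ according to the authors' deposited table (log2 -1.72, adjusted p = 0.000519). Kcnk5 encodes a tandem-pore potassium channel that carries a background current and is closed by acid. In the authors' deposited table its means were 290 in GFP+ against 456 in Tomato+, 1.57-fold lower in GFP+ (log2 -0.65, adjusted p = 0.00982). Of these 4 lower genes, Trpc6 and Kcnj5 thus showed the larger folds and the lower GFP+ means, and P2rx1 and Kcnk5 the smaller folds at higher means.

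Kcng1 was the member that rose. It encodes a subunit that forms no channel alone but joins other voltage-gated subunits and changes their gating. Its mean was 77.4 in GFP+ against 13.7 in Tomato+, or 5.65-fold higher in GFP+ according to the authors' deposited table (log2 2.50, adjusted p = 6.03e-05). The other silent subunit measured, Kcng2, had means of 7.52 and 22.0 and did not pass (log2 -1.55, adjusted p = 0.506 from the authors' deposited table). The call nearest to the threshold on the passing side was Kcnk5, and the nearest on the other side was Kcnip3, with adjusted p = 0.111 according to the authors' deposited table. With a Bonferroni adjustment Trpc6 and Kcng1 were left, and with a minimum log2 change of 1 in size Trpc6, Kcng1 and Kcnj5, 3 of 59 beside 3.45% of all rows.

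Promoter-proximal sequence was looked up in RefSeq for the called members, to show the DNA ahead of the genes that differed. The table, of build GRCm38.p6, matched 45 of the 59 members and 4 of the 5 called ones, all of them lower in GFP+. Each sequence runs 5′ to 3′ on the gene's strand from 250 to 51 bases before the annotated start, and no base of it lies in an annotated exon of GENCODE M21. Capitals mark the searched motifs on either strand. These were GGGCGG (the GC box), AGATAA (the sequence bound by GATA factors), CCGGAA (a core of Ets factor sites) and TATAAA (the TATA box). The last 50 bases before the start were not searched. The counts of TATAAA therefore do not show whether a promoter has a TATA box near its start.
Trpc6, chr9:8543892-8544091, plus strand: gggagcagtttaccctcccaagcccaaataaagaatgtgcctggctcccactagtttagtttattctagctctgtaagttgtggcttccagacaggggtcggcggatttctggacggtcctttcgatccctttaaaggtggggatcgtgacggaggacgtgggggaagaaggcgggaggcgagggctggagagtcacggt
P2rx1, chr11:72998895-72999094, plus strand: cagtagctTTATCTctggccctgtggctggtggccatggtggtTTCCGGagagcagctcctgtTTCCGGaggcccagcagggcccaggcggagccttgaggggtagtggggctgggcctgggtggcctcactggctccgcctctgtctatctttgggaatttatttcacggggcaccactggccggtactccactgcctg
Kcnj5, chr9:32344395-32344594, minus strand: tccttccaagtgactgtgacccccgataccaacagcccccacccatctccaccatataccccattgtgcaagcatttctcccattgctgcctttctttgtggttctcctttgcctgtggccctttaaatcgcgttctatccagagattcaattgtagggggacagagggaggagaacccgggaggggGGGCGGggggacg
Kcnk5, chr14:20181833-20182032, minus strand: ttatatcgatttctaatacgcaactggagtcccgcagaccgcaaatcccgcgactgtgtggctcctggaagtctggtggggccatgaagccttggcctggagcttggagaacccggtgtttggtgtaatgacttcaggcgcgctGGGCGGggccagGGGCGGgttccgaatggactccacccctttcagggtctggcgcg

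No motif was common to the 4 windows. The Trpc6 window held none of the 4 motifs. Kcnj5 held 1 GC box, 63 to 58 bases before the start, and Kcnk5 held 2, at 106 to 101 and 94 to 89 bases. P2rx1 held the complement of AGATAA, 242 to 237 bases before the start, and the complement of CCGGAA at 207 to 202 and 187 to 182 bases, with no overlap between motifs. In windows of the same length, 24.6% of the 32851 mouse promoters held GGGCGG, 8.42% AGATAA, 8.03% CCGGAA and 9.14% TATAAA. Of the 66 promoters of the 45 matched members, 36.4% held GGGCGG, 6.06% AGATAA, 3.03% CCGGAA and 4.55% TATAAA. The promoters of Cacnb2 enter these counts under both CacnB2 and Cacnb2, so not all 66 are distinct. The Kcnk5 window had 14 CpG dinucleotides, Trpc6 10, and Kcnj5 and P2rx1 6 each, beside a median of 4 over all promoters. A match is a run of letters and does not show that a factor binds there.

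Marker genes of other cell types differed between the fractions beside these calls. Beside 2.64% of all rows called lower and 4.86% called higher, 7 of 9 measured megakaryocyte and platelet markers fell and none rose, with summed means of 1967 in GFP+ against 4080 in Tomato+ according to the authors' deposited table. Of 10 endothelial markers 7 fell and none rose, with sums of 2829 and 5153 according to the authors' deposited table. In the other direction 8 of 8 hepatoblast markers rose (sums of 2492 and 680), as did 9 of 10 macrophage markers (1445 and 422), 6 of 9 erythroid markers (37096 and 11404) and 5 of 10 B lymphoid markers (647 and 246), all from the authors' deposited table. Most of the erythroid sums came from the globin genes Hba-a2 (16122 in GFP+ and 4190 in Tomato+) and Hbb-b1 (15589 and 4780). The uncalled erythroid markers Epor, Klf1 and Ermap were lower in GFP+, at log2 -0.89, -0.46 and -0.31 in the authors' deposited table. So was the uncalled macrophage marker Mrc1, at log2 -0.48. None of the matched markers was listed at 0 in either fraction. Of 6 mast cell and basophil markers 1 fell, and sums were 4852 and 6490, most of them Kit, according to the authors' deposited table. In bulk samples, fewer cells of a type and less RNA per cell cannot be told apart, and the part of these cell types in the channel calls was not tested. Of 7 genes listed for the sort and the stem and progenitor state, 2 rose, 1 fell and 4 did not pass. Slamf1, which encodes the sorted CD150, had means of 27.9 in GFP+ against 119 in Tomato+, 4.24-fold lower in GFP+ (adjusted p = 4.95e-08 from the authors' deposited table). Flt3, whose regulatory sequence drives the Cre, had means of 3753 and 1617, a 2.32-fold rise (adjusted p = 2.03e-19 from the authors' deposited table), so Flt3 RNA was counted in both fractions. Cd34 rose 1.58-fold, with means of 5974 and 3793 (adjusted p = 0.000103 from the authors' deposited table). Kit had means of 4087 and 4950 and Ly6a (Sca1) 59.5 and 70.1, with adjusted p-values of 0.187 and 0.872 according to the authors' deposited table. Ptprc and Cd48 did not pass either, at log2 values of 0.15 and 0.32 according to the authors' deposited table.

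Because normalized counts grow with gene length, levels were compared between members per kilobase of exon, with exon lengths of GENCODE M21 on GRCm38 for all 59 members. On this scale Trpc4ap, the adaptor, stood first with 408 normalized counts per kb over both fractions. The highest channel gene was Kcnn4, a calcium-activated potassium channel known from red cells and lymphocytes, with 414 per kb in GFP+ and 344 in Tomato+. Kcnab2, a cytoplasmic beta subunit of voltage-gated potassium channels, followed with 319 and 270 per kb, and Orai1 with 210 and 217. Fam38a (Piezo1), the stretch-activated channel, had 146 and 160 per kb, and Trpm7, a magnesium and calcium channel fused to a kinase, 135 and 154. At the low end, Cacna1d, an L-type calcium channel, had 0.997 and 1.05 per kb. The highest members include potassium, calcium-release-activated and mechanosensitive channels, and the lowest include calcium, sodium and inward rectifier subunits of excitable tissue. Of the called genes, P2rx1 stood at place 9 and Kcnk5 at place 11 per kb, and Trpc6, Kcng1 and Kcnj5 at places 23, 29 and 33. Without values per library, which neighbours in this order differ beyond their spread was not tested.

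**Figure D2:**
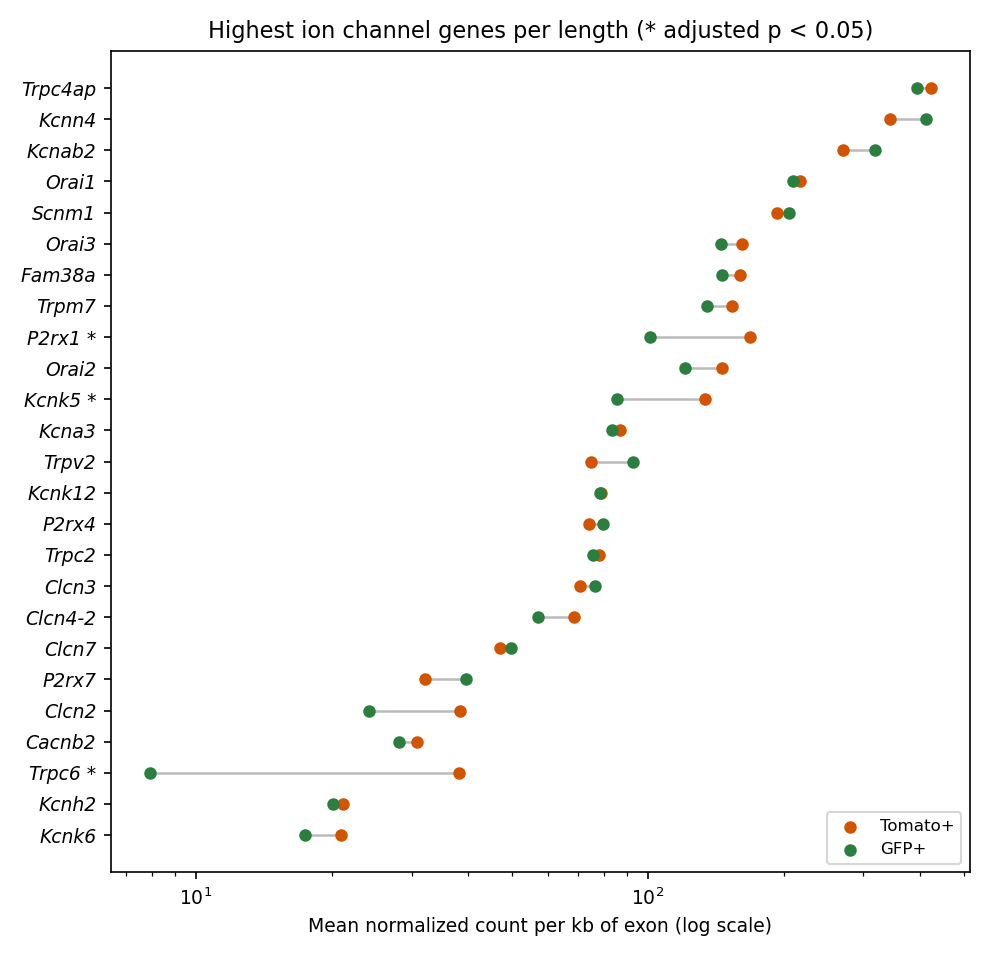
Mean normalized count per kb of exon (log scale) in GFP+ and Tomato+ for the 25 highest members, each row 1 gene, ordered by the level over both fractions, with no error bars since no value per library is in the table. Kcnn4 leads the channel genes at 414 per kb in GFP+, and the widest gap between the fractions is that of Trpc6, at 7.90 in GFP+ against 38.2 in Tomato+.

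Potassium channel genes and their accessory genes formed the largest group, with 22 members, of which 1 rose, 2 fell and 19 did not pass. Of all rows, 4.86% were called higher and 2.64% lower. Their median log2 was -0.08. Among 7 voltage-gated subunits Kcng1 was the only call, and the most highly counted was Kcna3, the main voltage-gated potassium channel of T cells, with means of 158 in GFP+ against 165 in Tomato+ (log2 -0.06, adjusted p = 0.965 from the authors' deposited table). Kcnh2, which carries a repolarizing current in the heart, had means of 93.4 and 97.9 according to the authors' deposited table, with a log2 of -0.07. Kcnq5, a slowly activating neuronal channel, had means of 57.6 and 60.1 according to the authors' deposited table (log2 -0.06). These 3 channels differed little between the fractions, with adjusted p-values from 0.965 to 1.00. Kcnd1, a rapidly inactivating voltage-gated channel, had means of 26.2 and 32.0 with a log2 of -0.29, and was not called according to the authors' deposited table.

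The 5 inward rectifiers all had overall means under 50, and besides Kcnj5 none passed. For comparison, 7.49% of all rows and 4.19% of rows with a mean under 50 were called. Kcnj10, a glial and kidney channel, had means of 20.4 in GFP+ against 12.4 in Tomato+ (log2 0.72, adjusted p = 0.729 from the authors' deposited table). Kcnj14, Kcnj15 and Kcnj2 had GFP+ means of 3.20, 7.19 and 5.20 and Tomato+ means of 9.97, 11.3 and 8.60, with log2 values of -1.64, -0.66 and -0.73 according to the authors' deposited table. None of these 3 passed. The 3 tandem-pore channels were better covered. Beside Kcnk5, Kcnk6 had means of 71.1 and 85.5 (log2 -0.27, adjusted p = 0.938) and Kcnk12, a silent relative, 155 in both fractions (adjusted p = 0.984) according to the authors' deposited table.

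Of the calcium-activated channels, Kcnn4 had means of 841 in GFP+ against 699 in Tomato+ according to the authors' deposited table. Its log2 of 0.27 had an unadjusted p of 0.0241 and did not pass after adjustment (adjusted p = 0.194 from the authors' deposited table). Kcnn1, a small-conductance channel of neurons, had means of 15.0 and 8.52 (log2 0.81, adjusted p = 1.00 from the authors' deposited table). Among accessory and interacting genes, Kcnab2 had means of 1316 and 1116 (log2 0.24, adjusted p = 0.468 from the authors' deposited table). Kcnip3, a calcium-binding protein that acts both on voltage-gated potassium channels and as a transcriptional repressor, had means of 18.7 and 44.7. Its log2 of -1.26 had an unadjusted p of 0.0111 and an adjusted p of 0.111 according to the authors' deposited table. Kcnip4, Kcne3 and Kcnrg had overall means of 11.4, 4.32 and 8.45 and log2 values of -0.08, -0.30 and 0.20 according to the authors' deposited table, and did not pass.

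**Figure D3:**
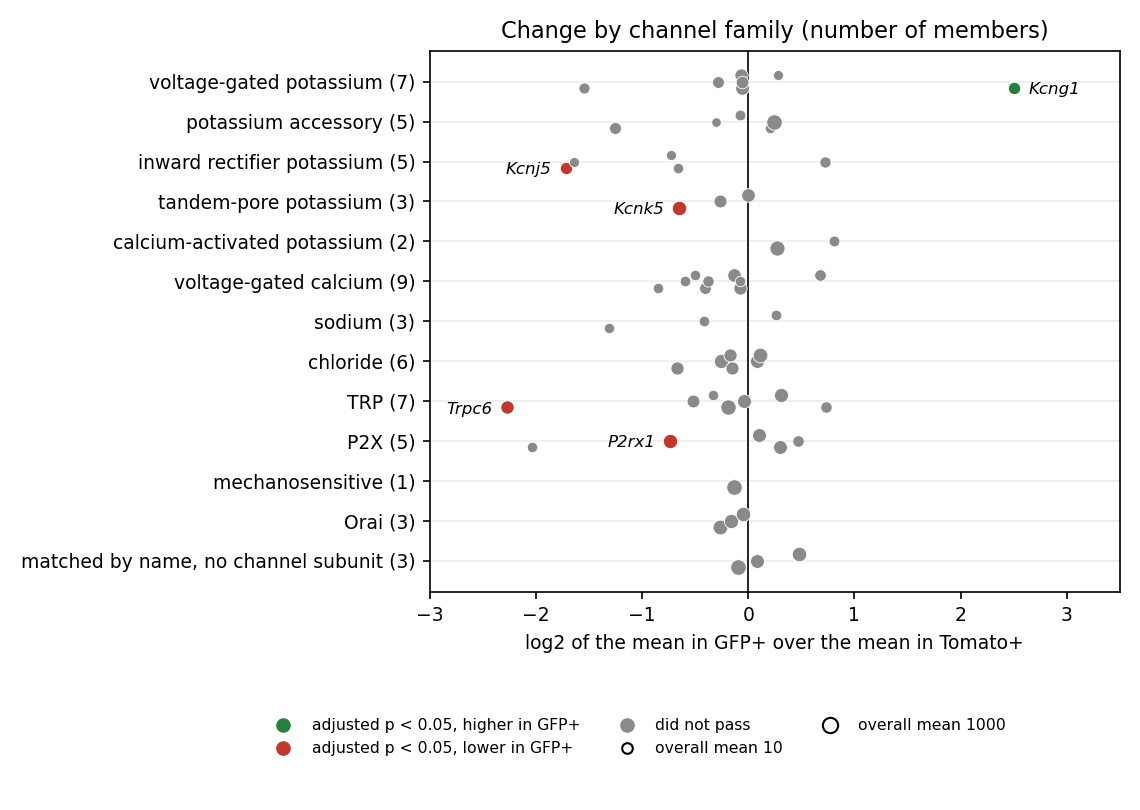
log2 of the GFP+ mean over the Tomato+ mean for each of the 59 members, by family; the area of a point grows with the log of the overall mean and colour shows the call. Kcng1 at 2.50 lies farthest to the right and Trpc6 at -2.27 farthest to the left, while the well-covered chloride, Orai and mechanosensitive members lie within 0.67 of 0.

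None of the 9 voltage-gated calcium channel rows passed in the authors' DESeq comparison, and none had an unadjusted p under 0.05. Of all rows, 7.49% were called and 16.2% had an unadjusted p under 0.05. Cacna1a, the pore of the P/Q-type channel, had means of 99.1 in GFP+ against 105 in Tomato+ (log2 -0.08, adjusted p = 1.00 from the authors' deposited table). Cacnb2, a beta subunit that brings the pore to the membrane, had means of 136 and 148 (log2 -0.13, adjusted p = 1.00 from the authors' deposited table). The second row of that gene, CacnB2, had 26.0 and 34.5 with a log2 of -0.41 according to the authors' deposited table, so both rows lay on the same side of 0. The other beta subunits Cacnb1 and Cacnb4 had overall means of 18.5 and 10.1, and log2 values of -0.38 and -0.60, according to the authors' deposited table. The alpha2delta subunits Cacna2d1, Cacna2d2 and Cacna2d4 had overall means of 9.02, 9.16 and 22.1 and log2 values of -0.85, -0.50 and 0.68, and Cacna1d had a mean of 9.20 and a log2 of -0.08 according to the authors' deposited table. Except for Cacna1a and Cacnb2 these rows thus held few counts. The 3 sodium channel subunits were sparse as well, with none called and none at an unadjusted p under 0.05. The highest of these by mean, Scnn1a of the epithelial sodium channel, had 11.1 in GFP+ against 9.29 in Tomato+ (log2 0.26 from the authors' deposited table), and Scn11a and Scn3b had log2 values of -0.42 and -1.31 at overall means of 9.97 and 8.24.

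Calcium entry through Orai channels and its partners showed no call, beside 7.49% of all rows called. At that share, lists as short as these can hold no call without differing from other rows. Orai1, the pore of the calcium release-activated current, had means of 394 in GFP+ against 407 in Tomato+ (log2 -0.05, adjusted p = 1.00 from the authors' deposited table). Orai2 had means of 493 and 594 (log2 -0.27, adjusted p = 0.790) and Orai3 310 and 346 (log2 -0.16, adjusted p = 0.650) according to the authors' deposited table. Their means ran from 310 to 594 counts, and all 3 log2 values lay below 0, between -0.27 and -0.05. Of 15 matched store partners and store channels none was called by the authors' DESeq comparison and none had an unadjusted p under 0.05, with a median log2 of -0.07. The sensor Stim1 had means of 551 and 673 (log2 -0.29, adjusted p = 0.308) and Stim2 262 and 275 (log2 -0.07) according to the authors' deposited table. The store release channel Itpr1 had means of 633 and 716 and Itpr3 497 and 485 according to the authors' deposited table. Of 8 calcium pumps and exchangers none was called and 1 had an unadjusted p under 0.05. That was Atp2a3, a store pump of blood cells, with means of 1865 and 2371 (log2 -0.35, adjusted p = 0.0680 from the authors' deposited table). Of 8 genes of mitochondrial calcium uptake none was called and none had an unadjusted p under 0.05.

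Downstream of calcium, 3 of 19 calcineurin and NFAT genes were called, 2 higher and 1 lower, beside 7.49% of all rows called, 4.86% higher and 2.64% lower. Nfatc2, an NFAT transcription factor of lymphocytes, had means of 236 in GFP+ against 124 in Tomato+, a 1.90-fold rise (adjusted p = 0.00800 from the authors' deposited table). Nfat5, which responds to osmotic stress and lacks the calcineurin control of the others, had means of 953 and 1358, 1.43-fold lower in GFP+ (adjusted p = 0.00237 from the authors' deposited table). Calm2, a calmodulin gene, rose 1.35-fold from 2444 to 3289 (adjusted p = 0.0157 from the authors' deposited table). Calm3, at a log2 of 0.14, was not called according to the authors' deposited table.

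Among the other TRP channels none passed, beside 7.49% of all rows called. Trpm7 had means of 962 in GFP+ against 1097 in Tomato+ (log2 -0.19, adjusted p = 0.630 from the authors' deposited table). Trpv2, a calcium-permeable channel of macrophages and other leukocytes, had means of 285 and 231 (log2 0.31, adjusted p = 0.500 from the authors' deposited table). Trpm4, a sodium channel opened by calcium, had means of 61.9 and 88.7, and Trpm2, opened by ADP-ribose under oxidative stress, 24.8 and 15.0 according to the authors' deposited table. Their log2 values were -0.52 and 0.73, with adjusted p-values of 0.911 and 0.487 according to the authors' deposited table. Trpv4, an osmosensitive channel, had an overall mean of 8.81 and a log2 of -0.33 according to the authors' deposited table. Trpc2, a channel of the rodent vomeronasal organ, had means of 217 and 224 according to the authors' deposited table, but its exons are shared with the readthrough gene Xntrpc and with Xndc1, so its counts cannot be assigned to Trpc2 with certainty.

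Beside P2rx1, the leukocyte receptors P2rx7 and P2rx4 had means of 219 and 215 in GFP+ and 178 and 201 in Tomato+ according to the authors' deposited table. Their log2 values were 0.30 and 0.10, with adjusted p-values of 0.418 and 1.00 according to the authors' deposited table, so neither passed and both lay on the other side of 0 from P2rx1. P2rx3, of sensory neurons, had means of 24.8 and 17.9, and P2rx2, its partner there, 3.47 and 14.3 according to the authors' deposited table. The log2 of P2rx2 was -2.04, yet with an overall mean of 8.89 its adjusted p was 0.437 according to the authors' deposited table. Fam38a (Piezo1) had means of 1202 and 1319 (log2 -0.13, adjusted p = 1.00 from the authors' deposited table).

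All 6 chloride members had overall means between 88.6 and 476, and none passed or had an unadjusted p under 0.05 in the authors' DESeq comparison. Of all rows, 7.49% were called and 16.2% had an unadjusted p under 0.05. Clcn2, the plasma membrane channel of the group, had means of 75.5 in GFP+ against 120 in Tomato+ (log2 -0.67, adjusted p = 0.561 from the authors' deposited table). Among the endosomal and lysosomal exchangers, Clcn3 had means of 494 against 458 and Clcn4-2 of 272 against 327 according to the authors' deposited table. The authors' deposited table gave means of 83.9 against 93.2 for Clcn5, 89.3 against 100 for Clcn6 and 219 against 206 for Clcn7. Their log2 values ran from -0.26 for Clcn4-2 to 0.11 for Clcn3 according to the authors' deposited table, and Clcn3 turned to -0.05 when both fractions were scaled to the same total. Of the members with no channel subunit, Trpc4ap had means of 1263 and 1354, Scnm1 216 and 204, and Kcnq1ot1 484 and 347 according to the authors' deposited table. The log2 of Kcnq1ot1 was 0.48 with adjusted p = 0.540 according to the authors' deposited table. It overlaps exons of Kcnq1 on the opposite strand, and the sources used here do not say whether counting used strand. In all, 16 members share exon sequence with another annotated gene, none of them among the 5 called.

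The calls were also read by level. Among the 28 members with an overall mean under 50, 2 were called, beside 4.19% of all such rows, and the log2 values of the others ran from -2.04 to 0.81. Among the 25 members with a mean from 50 to under 500, 3 were called, beside 7.74% of such rows, and the others ran from -0.67 to 0.48. None of the 6 members with a mean of at least 500 was called, beside 10.1% of such rows, and 1 of them, Kcnn4, had an unadjusted p under 0.05. Their log2 values stayed between -0.27 and 0.27. Of 7 members under 50 with a log2 of at least 1 in size, 5 did not pass; for these a difference was not detectable at this level.

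Ion transport genes outside the name rule were read from lists set beside it, and the fixed lists hold older and newer symbols of some genes, so matched genes alone are counted. Of 16 genes of the sodium-potassium pump and related exchangers 2 rose and 2 fell, beside 4.86% of all rows called higher and 2.64% called lower. Of the pump's 3 beta subunits 1 rose, 1 fell and Atp1b3 did not pass (log2 0.44, adjusted p = 0.102 from the authors' deposited table). Atp1b1 had means of 150 in GFP+ against 57.8 in Tomato+, a 2.60-fold rise (adjusted p = 0.000344 from the authors' deposited table). Atp1b2 had means of 57.9 and 194, 3.35-fold lower in GFP+ (adjusted p = 2.03e-05 from the authors' deposited table). Slc9a9, an endosomal sodium-hydrogen exchanger, rose 2.46-fold, and Slc12a2, a sodium, potassium and chloride cotransporter, fell 1.47-fold according to the authors' deposited table (adjusted p = 0.00129 and 0.0280).

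Of 44 other channel and channel-related genes, after Scnn1a was left out as a member, 2 rose and 3 fell, beside the same 4.86% and 2.64% of all rows, and the median log2 was -0.08. Pkd2, a polycystin channel of the wider TRP family, had means of 50.3 in GFP+ against 165 in Tomato+, 3.28-fold lower in GFP+ (adjusted p = 3.98e-05 from the authors' deposited table). Its partner Pkd1 had 633 and 860 and did not pass (log2 -0.44, adjusted p = 0.0683 from the authors' deposited table). Aqp1, a water channel of red cells and endothelium, fell 2.73-fold from 375 to 138 (adjusted p = 1.74e-07 from the authors' deposited table). Grina, a membrane protein linked to glutamate receptors that is not itself known as a plasma membrane channel, rose 1.38-fold (adjusted p = 0.000239 from the authors' deposited table). Clca1 fell from 23.0 to 3.35 (adjusted p = 0.0387 from the authors' deposited table). The 5 volume-regulated anion channel subunits Lrrc8a to Lrrc8e did not pass, with log2 values from -0.46 to 0.03 according to the authors' deposited table.

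**Figure D4:**
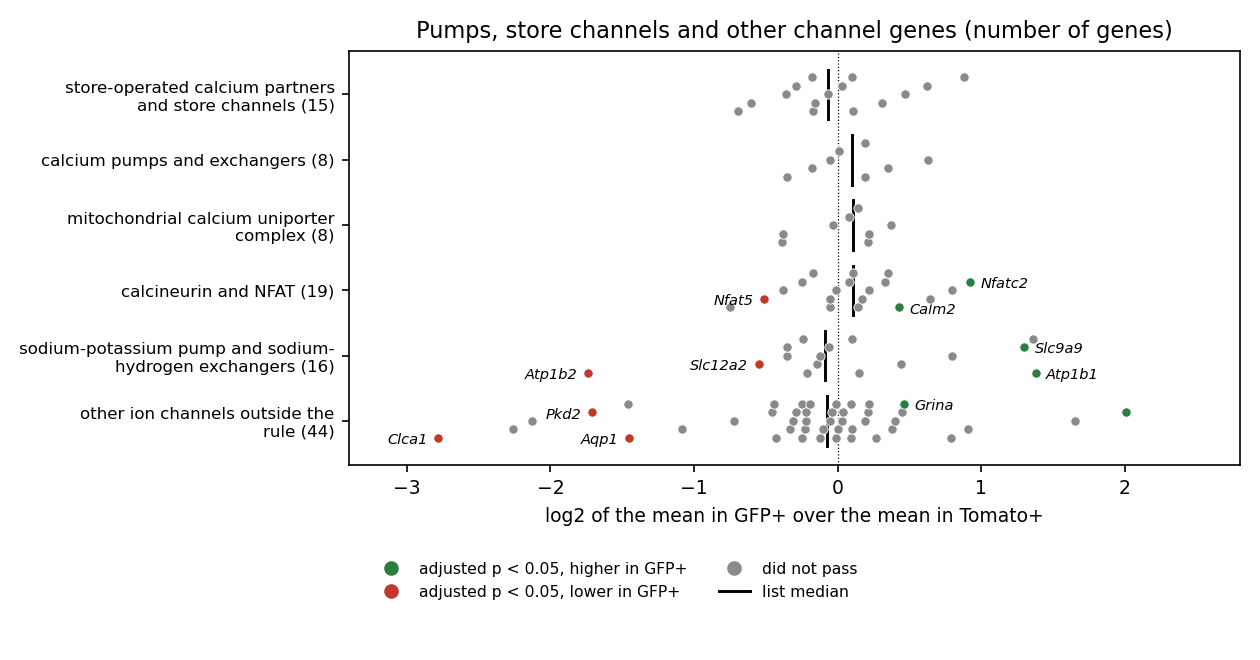
log2 of the GFP+ mean over the Tomato+ mean for genes of ion transport outside the name rule, in 6 lists, with the median of each list as a black bar and colour for the call. Called genes lie on both sides of 0, with Atp1b1 at 1.38 and Atp1b2 at -1.74, and the store, calcium pump and mitochondrial calcium lists hold no call.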

How the data were processed

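The authors deposited 1 table of 14268 rows that compares both fractions. Per the submitters' processing notes, DESeq, bedtools, TopHat, TopHat2 2.0.11 and Bowtie2 2.2.1 were named, with build mm9, and the notes give neither roles nor settings. As deposited, values are, per the file headers, a mean signal (baseMean, normalized counts averaged over libraries) over all libraries and over each fraction. The authors also deposited the ratio of the group means (fold change, Tomato+ over GFP+), its log2, and p-values before and after adjustment. The ratio matched the group means within a relative 7.79e-07, and the adjusted p matched a Benjamini-Hochberg adjustment over all rows within 5.28e-08. DESeq models counts, so its p-values depend on the mean and on a dispersion that the table does not show.

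The repeated header line was dropped, the sign of the log2 was turned, and the row with the highest mean was taken per symbol; no member had several rows. With no value per library, the planned edgeR fit was replaced by the authors' comparison, and depth per library is unknown. Counts per kb used the union of GENCODE M21 exons (GRCm38), which may differ from the authors' mm9 gene models. Promoters came from RefSeq GRCm38.p6. The adjustment and the member rule were tested on simulated data. The genes given with full values were set by rule: every member with an adjusted or unadjusted p under 0.05, the highest, most raised and most lowered members of each family with a mean of at least 50, all Orai genes and Fam38a, and members with a log2 of at least 1 in size and a mean of at least 50. Of these there were 25. Other members are named beyond the rule, and some genes are not reported here by name. From the other lists, called genes and others chosen after their values were seen are named. Members and lists were chosen with earlier results of these data known. Python 3.11.15, NumPy 2.4.6 and matplotlib 3.10.9 were used.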

Additional observations from a re-analysis of the deposited data

How the results depend on the processing

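No paired analysis was possible because single libraries have no values in the table. This also kept the planned edgeR and DESeq2 fits, other filters on library counts and the leaving out of libraries from being run. The 5 calls among the members were unchanged in number at adjusted p-values under 0.1 or 0.01, with a mean of at least 10 and with 1 row per symbol. Taking the row of lowest mean could not change them, since no member had several rows. A minimum log2 change of 1 in size gave 3 calls, a mean of at least 50 gave 3, since Kcng1 and Kcnj5 lie under it, and Bonferroni gave 2. The members' median log2 was -0.29 against -0.13 when both fractions were scaled to the same total, a setting that lowers every log2 by 0.16, and between -0.16 and -0.08 under the other alternatives. Of the 25 members of the naming rule only Clcn3, which was not called, changed sign, with equal totals. Depth per library is unknown, which limits the 28 members with a mean under 50.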
